A study of Homo sapiens with 8 samples.

Results

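ITGA3, ITGA6, ITGA7, ITGB1 and ITGB4 encode the α and β chains of the laminin-binding integrins, and they were followed here in breast cancer cells carrying a hairpin against ITGA3. The genes were taken as a fixed list, and every row was used that the platform annotation gives to 1 of them only. That left 5 of 22011 transcript clusters at the gene level, 1 for each gene, and 172 of 287329 probesets at the exon level. At the gene level 1 further cluster named ITGB1 together with another gene and was left out. RNA came from MDA-MB-231, an established human triple-negative breast cancer line with mesenchymal features. The cells had been stably transduced with lentivirus carrying either an α3-targeting shRNA (a short hairpin RNA that directs degradation of its target mRNA) or a control shRNA, and both groups were grown on plastic in serum-containing medium. Each group had 2 biological replicates, and as the labels do not say how these were separated, p-values measure the spread between these samples only. The 4 arrays (Affymetrix Human Exon 1.0 ST, with separate probesets along each gene) were summarised at both levels, which makes up the 8 samples of the series. The exon-level samples are therefore not further replicates. The labels name no other α3 hairpin and no re-expression of α3, so these arrays cannot separate loss of α3 from off-target effects of the hairpin or from differences between the transduced populations.

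Integrins are membrane receptors made of 1 α and 1 β chain that link the extracellular matrix to the cytoskeleton. Chain choice sets the ligand. The α3 chain pairs with β1, the α6 chain with β1 or with β4, and the α7 chain with β1, and all of these heterodimers bind laminins, the main glycoproteins of basement membranes. The β1 chain also pairs with many other α chains, among them receptors for collagen and fibronectin, whereas β4 pairs only with α6 and anchors epithelial cells through hemidesmosomes. The arrays measured RNA only, so nothing here bears on the amount of heterodimer at the cell surface.

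Values are given as linear PLIER intensities. Gene-level medians were 168 and 171 in the α3-hairpin arrays and 177 and 186 in the control arrays, a shift that touches every small difference below, and the number of arrays limits the precision of each value. Markers of the line were bright, with vimentin (VIM), CD44, AXL, CAV1 and MSN each above the 92nd percentile of all clusters. Their summed intensity was 17558 to 17877 in the α3-hairpin arrays and 20970 to 21329 in the controls. Of 7 luminal epithelial markers, ESR1, PGR and CDH1 lay among the dim clusters and the list summed to 3229 to 3271 in the α3-hairpin arrays and 4637 to 5073 in the controls. Most of that sum came from KRT19, at 2357 and 2343 in the α3-hairpin arrays and 3812 and 4204 in the controls. ERBB2 measured 332 and 346 in the α3-hairpin arrays and 460 and 480 in the controls. CDH1 went the other way, at 177 and 168 in the α3-hairpin arrays and 25.4 and 28.8 in the controls, and so did GATA3, at 164 and 182 in the α3-hairpin arrays and 144 and 147 in the controls. EPCAM overlapped between the groups, at 110 and 138 in the α3-hairpin arrays and 99.0 and 114 in the controls. Whether these marker levels bear on the integrin results was not tested. Of 10 leukocyte, endothelial and fibroblast markers, 8 were measured. The leukocyte list summed to 343 to 420 in the α3-hairpin arrays and 332 to 371 in the controls, the endothelial list to 105 to 130 in the α3-hairpin arrays and 127 to 147 in the controls, and the fibroblast list to 265 to 274 in the α3-hairpin arrays and 249 to 266 in the controls. No marker was at 0. The defining leukocyte gene PTPRC stayed between 25.1 and 27.4 on all 4 arrays. PTPRC, PECAM1, CDH5, COL3A1 and DCN lay among the dim clusters, whereas CD14, CD3E and COL1A1 did not. CD14 measured 205 and 250 in the α3-hairpin arrays and 230 and 211 in the controls. CD3E measured 110 and 144 in the α3-hairpin arrays and 114 and 93.5 in the controls. COL1A1 measured 167 and 167 in the α3-hairpin arrays and 147 and 148 in the controls.

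**Figure D1:**
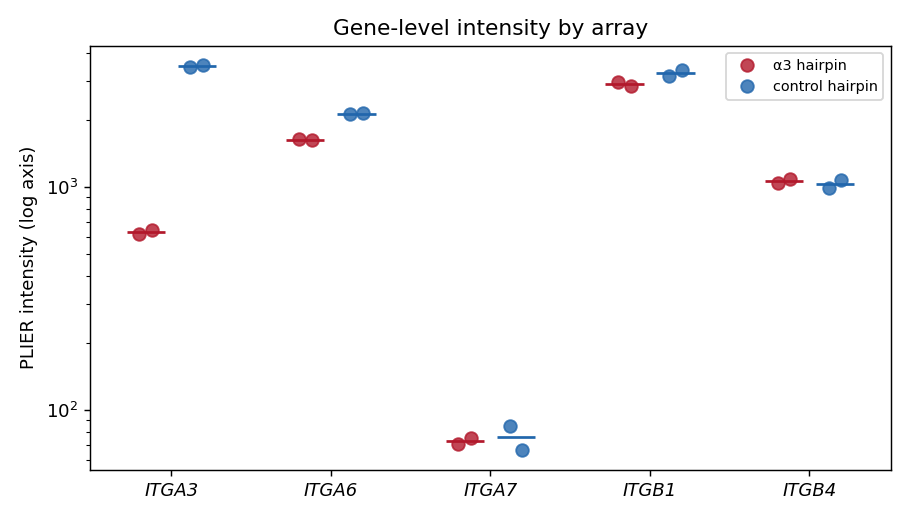
Gene-level PLIER intensity (log axis) of the 5 laminin-binding integrin genes, with 1 point per array, α3-hairpin arrays in red left of control arrays in blue, and bars at the group means (n = 2). ITGA3 averaged 631 with the α3 hairpin and 3504 with the control hairpin, ITGA6 shows a smaller gap, and the points of ITGA7 and ITGB4 overlap between groups.

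ITGA3, the target of the hairpin, fell. Its transcript cluster measured 619 and 644 in the α3-hairpin arrays and 3480 and 3529 in the control arrays. The α3-hairpin mean was 18.0% of the control mean. An array averages over a culture, so fewer cells with ITGA3 RNA and less of it per cell cannot be told apart. The spread within each group was small beside the gap (631 ± 17.5 with the α3 hairpin, 3504 ± 34.7 with the control hairpin, SD, n = 2 each). On the log2(value + 16) scale the difference was -2.44 ± 0.073 (SE), with a 95% interval of -2.62 to -2.27 (adjusted p = 8.70e-05, limma with Benjamini-Hochberg adjustment over all clusters tested).

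Of the partner chains, ITGA6 fell, ITGB1 and ITGB4 did not pass the test and ITGA7 was too dim to be tested. ITGA6, the α chain shared by α6β1 and α6β4, measured 1638 and 1635 in the α3-hairpin arrays and 2129 and 2153 in the controls, so the groups did not overlap. The α3-hairpin mean was 76.4% of the control mean. The log2 difference was -0.38 ± 0.071 (SE; 95% interval -0.56 to -0.21, adjusted p = 0.0150, limma). This call rested on both α3-hairpin arrays: the adjusted p was 0.0831 without replicate 1 and 0.0967 without replicate 2, while the difference itself stayed at -0.39 and -0.38. With each array centred on its own median, the ITGA6 difference was -0.29 (adjusted p = 0.0324).

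ITGB1, the β chain of α3β1, α6β1 and α7β1, measured 2958 and 2839 in the α3-hairpin arrays and 3172 and 3362 in the controls. Both α3-hairpin values lay below both control values, but the log2 difference of -0.17 ± 0.077 (SE) did not pass (adjusted p = 0.168, limma), and its 95% interval of -0.36 to 0.01 reaches from a loss close to that of ITGA6 to no change. With each array centred on its own median, the ITGB1 difference was -0.08 (adjusted p = 0.479, limma). ITGB4, the hemidesmosomal β chain and exclusive partner of α6, measured 1041 and 1088 in the α3-hairpin arrays and 996 and 1083 in the controls. Its groups overlapped, and the log2 difference was 0.04 ± 0.082 (SE, adjusted p = 0.805, limma). After the same centring the ITGB4 difference was 0.13 (adjusted p = 0.250, limma). Without centring its 95% interval was -0.16 to 0.23. An interval of this width does not show that ITGB4 was unaffected, though it does not reach the difference measured for ITGA6.

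ITGA7, which encodes the laminin-binding α chain best known from muscle, was dim. It measured 70.2 and 74.9 in the α3-hairpin arrays and 85.1 and 66.0 in the controls. Its mean lay at the 32nd percentile of all clusters and under the limit of 108 (the lowest 40% of clusters) below which clusters were left out of the test. The groups overlapped, and without that filter its difference was -0.04 (adjusted p = 0.916, limma).

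Of the 5 genes, 4 were therefore tested and 2 were lower, in a comparison that called 15.4% of all tested clusters lower and 6.00% higher. Both α3-hairpin arrays lay below both controls in 39.7% of tested clusters and above both in 22.2%. With 2 calls in 4 genes, 1 of them the hairpin's own target, no statement about the integrins as a group follows from the count. The median log2 difference over all tested clusters was -0.06. With each array centred on its own median, 1529 of the 13207 tested clusters were called lower and 1494 higher. The fit reported called 2033 lower and 793 higher, so its excess of lower calls was mostly absent after centring.

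**Figure D2:**
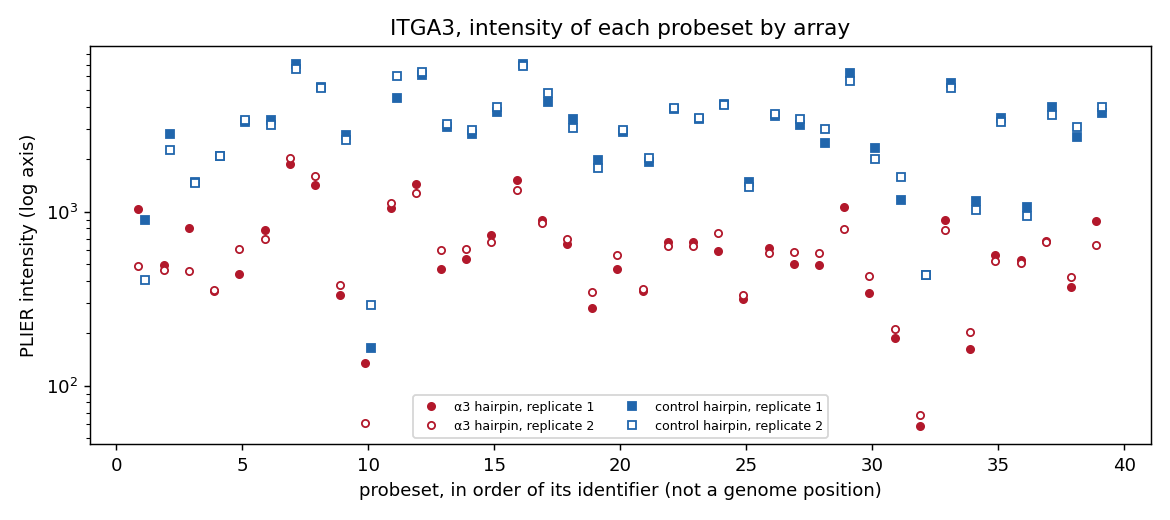
PLIER intensity (log axis) of each of the 39 ITGA3 probesets on each array, in order of the probeset identifier, with α3-hairpin arrays in red and control arrays in blue. Filled points are replicate 1 and open points replicate 2. Apart from the first probeset (3726156), where the filled points of both colours lie above the open ones, every probeset has both red points below both blue points.

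The exon-level values show how far the ITGA3 signal fell in each probeset, without its place in the gene. All 39 ITGA3 probesets were bright enough to be tested, and 37 of them fell, 0 rose and 2 did not pass, where 3.33% of all tested probesets were called lower and 1.33% higher. Both α3-hairpin arrays lay below both controls in 38 of the 39, against 31.4% of all tested probesets. The median log2 difference was -2.44, the same as the gene-level value, and the quartiles lay at -2.56 and -2.24. Probesets of a gene read the same RNA on the same arrays, so they are not replicates of the knockdown. For 2 of the probesets, 3726170 and 3726199, the mean passed the brightness limit of 99.4 only through the control arrays.

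Expressed as signal left, 27 of the 39 probesets kept between 10% and 20% of their control mean, 6 kept between 20% and 25%, and 2 between 25% and 30%. The lowest was probeset 3726168, at 330 and 377 in the α3-hairpin arrays and 2766 and 2564 in the controls, or 13.3% of control (log2 difference -2.86 ± 0.148 (SE), adjusted p = 9.00e-05, limma). Probeset 3726205 came next at 366 and 420 in the α3-hairpin arrays and 2667 and 3045 in the controls, or 13.8% of control. Probeset 3726195 had the third largest log2 difference, -2.67, with 1066 and 795 in the α3-hairpin arrays and 6289 and 5639 in the controls. These values lie within a narrow band, and no ITGA3 probeset lost as much as 90% of its signal.

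The remaining 4 ITGA3 probesets kept more. Probeset 3726203, the 36th in identifier order, measured 525 and 504 in the α3-hairpin arrays and 1061 and 948 in the controls, so that 51.2% was left (log2 difference -0.94 ± 0.155 (SE), adjusted p = 0.0148, limma). Probeset 3726161, the third, measured 803 and 458 in the α3-hairpin arrays and 1475 and 1450 in the controls, with 43.1% left (adjusted p = 0.0234, limma). Probeset 3726170, the tenth and the dimmest, measured 135 and 61.1 in the α3-hairpin arrays and 165 and 290 in the controls, and did not pass (adjusted p = 0.134, limma). All 3 had both α3-hairpin values below both control values, but in 3726170 the replicates within each group lay far apart.

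Probeset 3726156, the first, did not follow the hairpin. It measured 1031 and 488 in the α3-hairpin arrays and 898 and 404 in the control arrays, a log2 difference of 0.23 ± 0.396 (SE, adjusted p = 0.798, limma). On this probeset the replicate 1 arrays of both groups were high and the replicate 2 arrays of both groups were low. The annotation used here gives no exon for a probeset, so whether these 4 share a place in the transcript was not tested.

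Each probeset was also set against the mean of the other tested probesets of its gene, which asks whether part of a gene moved otherwise than the rest. No probeset of the 5 genes passed this test (0 of 143, limma with Benjamini-Hochberg adjustment, where 0.0586% of all probesets passed). At an unadjusted p under 0.05 there were 15 of the 143, where 6.09% of all probesets lay under that p, and 11 of the 15 belonged to ITGA3, 2 to ITGA7, 1 to ITGB1 (of 22) and 1 to ITGB4 (of 43). Within ITGA3, 6 of the 11 were lowered less than the rest of the gene and 5 were lowered more. The smallest p was that of 3726203, which lay 1.34 ± 0.187 (SE) above the rest of ITGA3 on the log2 scale (adjusted p = 0.102, limma), followed by 3726156 at 2.55 ± 0.443 (SE, adjusted p = 0.198, limma) and 3726161 at 1.03 ± 0.261 (SE, adjusted p = 0.466, limma). By diffSplice, limma's pooled test of exon usage, 4 probesets passed (3726156, 3726161, 3726170 and 3726203), where 0.400% of all probesets passed. That test takes its error from all probesets of a gene, which share the 4 arrays and are not replicates, so its p-values are too small and are not given. With the α3-hairpin replicate 2 array left out 1 probeset passed, 3726156 (adjusted p = 0.0264, limma), and with the stricter filter on dim features 1 passed, 3726203 (adjusted p = 0.0441, limma).

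**Figure D3:**
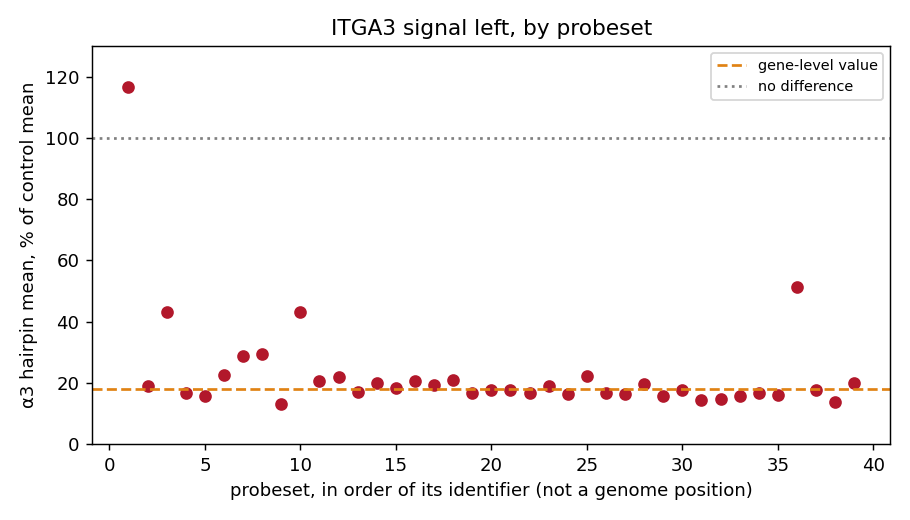
Signal left in each of the 39 ITGA3 probesets, as the α3-hairpin mean in percent of the control mean, in order of the probeset identifier, with a dashed line at the gene-level value of 18.0% and a dotted line at 100%. The probesets with most signal left are 3726156, 3726203, 3726161 and 3726170, and the other 35 lie below 30%.

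The 2 probesets with between 25% and 30% left were adjacent in identifier order: 3726166 measured 1878 and 2040.0 in the α3-hairpin arrays and 7012 and 6609 in the controls, and 3726167 measured 1420 and 1594 in the α3-hairpin arrays and 5178 and 5104 in the controls.

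**Figure D4:**
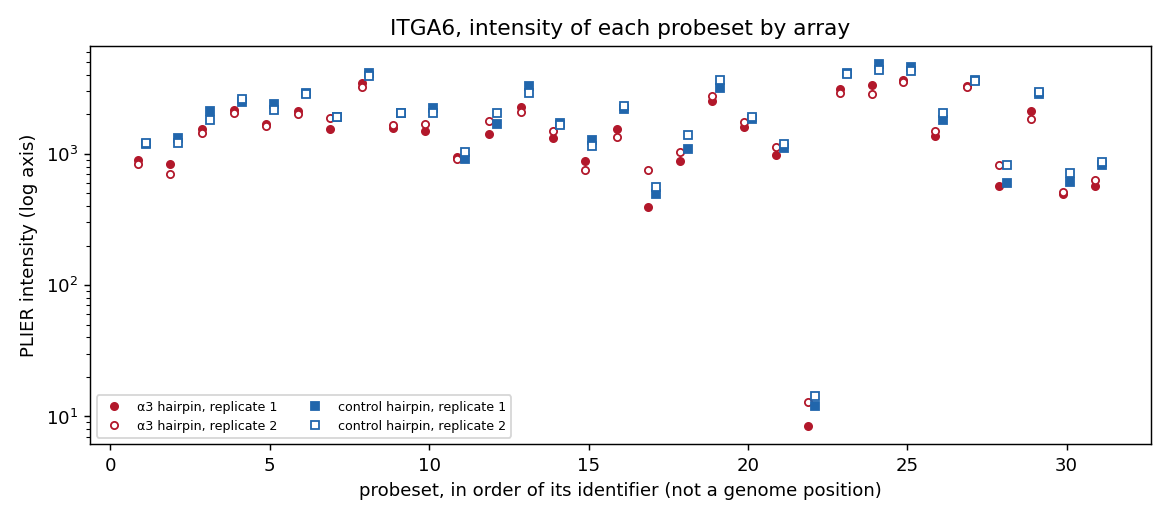
PLIER intensity (log axis) of each of the 31 ITGA6 probesets on each array, in order of the probeset identifier, with α3-hairpin arrays in red and control arrays in blue. In 25 of the 30 tested probesets both red points lie below both blue ones, in the other 5 they overlap, and probeset 2515673 is dim on all arrays.

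At the exon level most ITGA6 probesets had a small negative difference, and few passed the test. Of its 31 probesets, 30 were tested, and 29 of these had a negative log2 difference. The median was -0.38, with quartiles at -0.46 and -0.23. Both α3-hairpin arrays lay below both controls in 25 of 30 and above both in 0, against 31.4% and 19.4% of all tested probesets. Probeset by probeset the differences were near the limit of the test: 4 fell, 0 rose and 26 did not pass. The 4 that fell are 13.3% of the 30, where 3.33% of all tested probesets were called lower. None of the 30 was apart from the rest of ITGA6 at an unadjusted p under 0.05.

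The lowest ITGA6 probeset was 2515643, at 830 and 702 in the α3-hairpin arrays and 1315 and 1214 in the controls (log2 difference -0.72 ± 0.152 (SE), adjusted p = 0.0350, limma). The others that fell were 2515665 at 1543 and 1340 in the α3-hairpin arrays and 2190.0 and 2327 in the controls, 2515685 at 2110.1 and 1842 in the α3-hairpin arrays and 2872 and 2980 in the controls, and 2515675 at 3372 and 2867 in the α3-hairpin arrays and 4829 and 4318 in the controls. In all 4 the groups did not overlap, which adds nothing to the calls, as these were made from the same values. At the other end, probeset 2515666 measured 391 and 754 in the α3-hairpin arrays and 492 and 560 in the controls, 2515684 measured 569 and 818 in the α3-hairpin arrays and 604 and 822 in the controls, and 2515659 measured 941 and 909 in the α3-hairpin arrays and 914 and 1039 in the controls, all 3 with overlapping groups.

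The dimmest ITGA6 probeset, 2515673, was not tested. It measured 8.44 and 12.9 in the α3-hairpin arrays and 12.1 and 14.4 in the controls, while the brightest, 2515677, measured 3669 and 3501 in the α3-hairpin arrays and 4582 and 4246 in the controls. The α6 chain is known to exist with alternative cytoplasmic tails, and so are α3 and α7, but the annotation does not tie any probeset to a tail, and no tail form is reported here. The number of ITGA6 probesets that fell depended on the fit: 0 without the filter on dim features, without the intensity trend, after centring, or without control replicate 1, control replicate 2 or α3-hairpin replicate 2, and above 4 in others, such as 7 with the stricter filter.

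**Figure D5:**
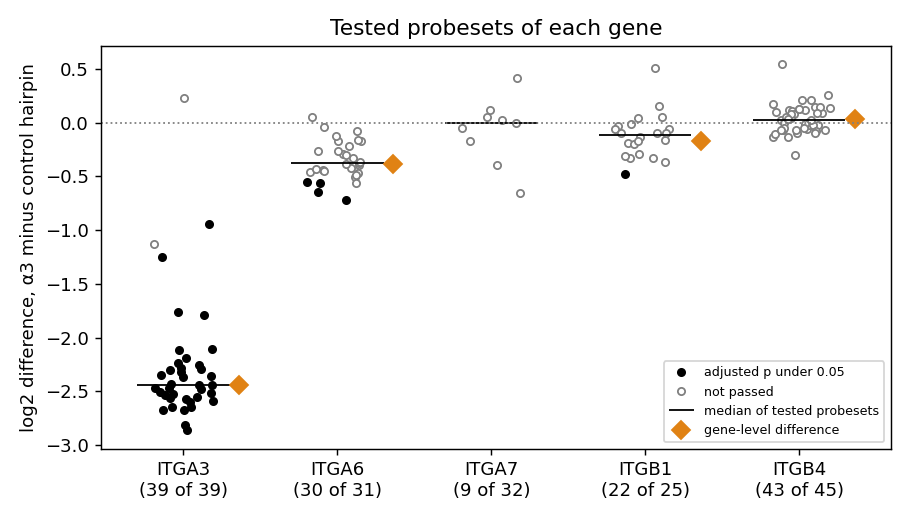
Log2 difference (α3 hairpin minus control hairpin) of every tested probeset of the 5 genes, with the number tested of all probesets under each name, filled points for adjusted p under 0.05 (limma), a line at the median and a diamond at the gene-level difference. ITGA3 lies around -2.44 and ITGA6 around -0.38, while the medians of ITGB1 (-0.12), ITGB4 (0.03) and ITGA7 (-0.01) lie near 0.

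The probesets of the β chains mostly did not pass. Of 25 ITGB1 probesets, 22 were tested, of which 1 fell, 0 rose and 21 did not pass, with a median log2 difference of -0.12. Both α3-hairpin arrays lay below both controls in 7, above both in 1, and overlapped with them in 14. The 7 are 31.8% of the 22, against 31.4% of all tested probesets, and the 1 that fell is 4.55%, against 3.33%, so neither share stands apart from the background. The probeset that fell was 3284211, at 2849 and 2703 in the α3-hairpin arrays and 3792 and 3951 in the controls (log2 difference -0.48 ± 0.109 (SE), adjusted p = 0.0443, limma). Its call was lost without α3-hairpin replicate 2 or either control array, among other settings, where 0 ITGB1 probesets passed.

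The other 21 ITGB1 probesets tested did not pass. The brightest, 3284204, measured 9037 and 9137 in the α3-hairpin arrays and 10058 and 8573 in the controls. Probeset 3284232 measured 2728 and 2763 in the α3-hairpin arrays and 2501 and 2421 in the controls, the only tested ITGB1 probeset with both α3-hairpin values above both controls, and did not pass (log2 difference 0.16, adjusted p = 0.478, limma). Probeset 3284193 had the highest difference, 0.51 ± 0.413 (SE), at 330 and 747 in the α3-hairpin arrays and 231 and 510 in the controls. As with the first ITGA3 probeset, its 4 values sort by replicate number, here with replicate 2 high in both groups. With each gene summarised, on each array, as the median of its tested probesets, ITGB1 differed by 0.0045 on the log2 scale (adjusted p = 0.988, limma). The gene-level difference of -0.17 was not seen in that summary, although 18 of the 22 tested ITGB1 probesets had a negative difference and 4 a positive one. The same summary gave -2.43 for ITGA3 (adjusted p = 0.000104, limma) and -0.33 for ITGA6 (adjusted p = 0.0865, limma).

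For ITGB4, 43 of 45 probesets were tested and 0 passed in either direction, with 24 positive and 19 negative differences and a median of 0.03. Both α3-hairpin arrays lay below both controls in 3 and above both in 6, against 31.4% and 19.4% of all tested probesets. The groups overlapped in the other 34. In the test against the rest of the gene, 1 of the 43 probesets lay at an unadjusted p under 0.05. That was 3735219, the last in identifier order, at 1077 and 1078 in the α3-hairpin arrays and 643 and 839 in the controls (log2 difference 0.54 ± 0.167 (SE), adjusted p = 0.105, limma). The lowest, 3735155, measured 342 and 316 in the α3-hairpin arrays and 372 and 447 in the controls and did not pass (adjusted p = 0.425, limma).

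Of 32 ITGA7 probesets, 23 were dim and 9 were tested, and 0 of the 9 passed. The brightest, 3457116, measured 370.0 and 588 in the α3-hairpin arrays and 410 and 537 in the controls. Probeset 3457102 was the lowest, at 77.2 and 82.0 in the α3-hairpin arrays and 138 and 132 in the controls, and probeset 3457150 the highest, at 296 and 270.3 in the α3-hairpin arrays and 243 and 177 in the controls. Both had separated groups, with differences of opposite sign, and neither passed (adjusted p = 0.217 and 0.345, limma). Among the 9 tested, both α3-hairpin arrays lay below both controls in 1 and above both in 1. Over all tested probesets these shares were 31.4% and 19.4%. The mean of 3457102 passed the brightness limit only through the control arrays. Over the 5 genes 143 of 172 probesets were tested and 42 were called, 37 of them in ITGA3, where 4.65% of all tested probesets were called in either direction.

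Genes that work with these integrins were read from groups listed with earlier results of these data known. Of 53 genes, 33 were tested at the gene level, of which 3 rose, 11 fell and 19 did not pass. Over all tested genes with 1 symbol, 6.11% rose and 17.0% fell. These shares, used as background for each group below, come from the fit without centring and were not computed after it. The median log2 difference of the 33 was -0.14, against -0.06 over those genes. A further 9 were dim and 11 had no cluster of their own symbol.

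Among 12 laminin chains, the ligands of these receptors, 4 were tested and 2 fell, where 17.0% of all tested genes with 1 symbol fell. LAMB2 measured 905 and 825 in the α3-hairpin arrays and 1254 and 1216 in the controls (log2 difference -0.51, adjusted p = 0.0105, limma), and LAMA5 measured 630.3 and 599.6 in the α3-hairpin arrays and 754 and 810 in the controls (adjusted p = 0.0355, limma). The LAMB2 call was lost without α3-hairpin replicate 2 (adjusted p = 0.0767), and that of LAMA5 without either α3-hairpin array or control replicate 2, after centring, without the filter and without the intensity trend (adjusted p up to 0.228). The chains of laminin-332, the classical ligand of α3β1 and α6β4 in epithelia, could be read only at the exon level and in part. There 0 of 26 tested LAMA3 probesets and 0 of 30 tested LAMB3 probesets passed, where 4.65% of all tested probesets passed. Their median log2 differences were 0.21 and -0.05.

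Lateral partners in the membrane, mostly tetraspanins and the proteins that bind them, were all bright enough to be tested. Of the 10 genes 3 fell, 0 rose and 7 did not pass, where 17.0% of all tested genes with 1 symbol fell and 6.11% rose. PTGFRN, a partner of the tetraspanins CD9 and CD81, measured 168 and 152 in the α3-hairpin arrays and 1455 and 1574 in the controls (log2 difference -3.12 ± 0.094 (SE), adjusted p = 8.70e-05, limma). At the exon level 7 of its 14 tested probesets fell and 0 rose, against 3.33% and 1.33% of all tested probesets. Their median log2 difference was -1.62, with a range of -3.43 to 0.31 over the 14. CD151, the tetraspanin that binds α3β1 directly, measured 1708 and 1608 in the α3-hairpin arrays and 2207 and 2009 in the controls (adjusted p = 0.0348, limma), and CD81 measured 2259 and 2007 in the α3-hairpin arrays and 2847 and 2584 in the controls (adjusted p = 0.0467, limma). The last pair of calls was lost without either α3-hairpin array or control replicate 1, that of CD81 also without control replicate 2, and both after quantile normalization or centring, without the filter and without the intensity trend (adjusted p up to 0.196 for CD151 and 0.251 for CD81). That of PTGFRN held in all 13 alternatives.

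Among 10 tested cytoplasmic linkers and activators 2 rose, 2 fell and 6 did not pass, against 6.11% and 17.0% of all tested genes with 1 symbol. FERMT1 (kindlin-1) and FERMT2 (kindlin-2), which bind β tails and activate integrins, differed in direction: FERMT1 measured 165 and 184 in the α3-hairpin arrays and 398 and 475 in the controls (log2 difference -1.25 ± 0.122 (SE), adjusted p = 0.00276, limma), and FERMT2 measured 1721 and 1585 in the α3-hairpin arrays and 1274 and 1372 in the controls (log2 difference 0.32 ± 0.084 (SE), adjusted p = 0.0431, limma). PTK2, the focal adhesion kinase, measured 2154 and 2100.4 in the α3-hairpin arrays and 1517 and 1676 in the controls (adjusted p = 0.0187, limma), and VCL (vinculin) measured 1300.1 and 1242 in the α3-hairpin arrays and 1520 and 1648 in the controls (adjusted p = 0.0395, limma). The FERMT1 call held in all 13 alternatives. Those of PTK2, FERMT2 and VCL were lost without either α3-hairpin array, that of FERMT2 also without either control array and that of VCL without control replicate 2 or after centring (adjusted p up to 0.0952, 0.237 and 0.227). The FERMT2 and VCL calls were also lost without the filter and without the intensity trend. Centring moved the log2 difference of PTK2 from 0.41 to 0.50 and that of FERMT2 from 0.32 to 0.41. It moved that of FERMT1 from -1.25 to -1.16 and that of VCL from -0.31 to -0.22. FERMT2, the last of the 4 by p, was singled out after its values were seen.

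FLNA (filamin A), which links β tails to actin, had no cluster of its own at the gene level. At the exon level 37 of its 51 tested probesets fell and 0 rose, with a median log2 difference of -0.61. Over all tested probesets 3.33% were called lower and 1.33% higher. For TLN1 (talin-1), the main activator of β1, 0 of 60 tested probesets passed, with a median of -0.06. FLNA and TLN1 were singled out after their values were seen. The tested hemidesmosome partners of α6β4, PLEC (plectin) and DST, did not pass at log2 differences of 0.06 and -0.07 (adjusted p = 0.711 and 0.730, limma).

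The other laminin receptors tested differed in direction, and BCAM was too dim to be tested under the stricter filter. ITGA2, the α chain of a collagen and laminin receptor, measured 2042 and 1888 in the α3-hairpin arrays and 1505 and 1559 in the controls (log2 difference 0.36 ± 0.079 (SE), adjusted p = 0.0261, limma), and BCAM measured 236.05 and 235.9 in the α3-hairpin arrays and 295 and 319 in the controls (adjusted p = 0.0460, limma). Centring moved the log2 difference of ITGA2 from 0.36 to 0.45 and that of BCAM from -0.36 to -0.27. Both calls were lost without either α3-hairpin array or control replicate 1, and without the filter, and that of BCAM also without control replicate 2 and after quantile normalization or centring (adjusted p up to 0.164 and 0.237).

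The α3, α6 and α7 precursors are cleaved by furin-type convertases. Of 3 tested convertase genes 2 were lower, where 17.0% of all tested genes with 1 symbol fell. Each of the 2 was too dim to be tested under the stricter filter. FURIN measured 111 and 135 in the α3-hairpin arrays and 186 and 219 in the controls (adjusted p = 0.0245, limma), and PCSK7 measured 153 and 167 in the α3-hairpin arrays and 213 and 235 in the controls (adjusted p = 0.0376, limma). Both calls were lost without either α3-hairpin array or control replicate 2 and without the filter, and that of PCSK7 also without control replicate 1 and after centring (adjusted p up to 0.120 and 0.208). Of the splicing factors listed, RBFOX2 measured 831 and 844 in the α3-hairpin arrays and 1265 and 1336 in the controls (log2 difference -0.62 ± 0.076 (SE), adjusted p = 0.00478, limma) and kept its call in all 13 alternatives, while PTBP1 did not pass (log2 difference -0.25, adjusted p = 0.0810, limma).

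The genes whose profile over the 4 gene-level arrays was closest to that of each integrin were found by Euclidean distance between log2 values centred on each gene's own mean, among 9230 other genes. For ITGA3 these were HAS2 (distance 0.066), EPHA4 (0.102), GLUL (0.148), ARMCX2 (0.169) and MMP1 (0.202). EPHA4 and GLUL passed the brightness limit of 108 only through the control arrays. EPHA4 measured 56.2 and 56.3 in the α3-hairpin arrays and 397 and 410 in the controls. GLUL measured 69.6 and 78.2 in the α3-hairpin arrays and 450 and 422 in the controls. HAS2, a hyaluronan synthase, measured 233 and 229 in the α3-hairpin arrays and 1355 and 1359 in the controls, a log2 difference of -2.48 beside -2.44 for ITGA3. For ITGA6 the nearest were CFAP97 (0.016), MRPL34 (0.019), MAP1S (0.019), DPF1 (0.020) and CPT1C (0.022), for ITGB1 the nearest was TEAD4 (0.0041) and for ITGB4 it was TAMM41 (0.0088). With 4 arrays, a small distance says little more than that the difference between the groups was of like size.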

How the data were processed

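RNA of 2 biological replicates with the α3 hairpin and 2 with the control hairpin was measured on exon arrays. The authors deposited linear PLIER intensity values for transcript clusters and for probesets, made with the core analyses of Affymetrix Expression Console, per the labels. The series text names the Exon Array Computational Tool. Software versions and genome build are not given in the sources consulted, which also say nothing of scaling across arrays, and the arrays' medians were unequal.

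Rows were named through the platform annotation, with symbols updated through RefSeq (GRCh38, names only). Of the clusters 14432 had 1 symbol, 2408 several and 5171 none, and of the probesets 261273, 9155 and 16901. A gene of the adhesion groups was read at its brightest cluster. Intensities became log2(value + 16), the dimmest 40% of features (mean of the 4 arrays) were not tested, and α3 hairpin minus control was fitted with limma 3.58.1 in R 4.3.3 (lmFit and trended eBayes with hairpin as the single term, two-sided, leaving 2 residual degrees of freedom) over all features, adjusting by Benjamini-Hochberg and calling at 0.05. Differences on this scale understate changes of dim features. For the test of a probeset against its gene, the mean of the other tested probesets was subtracted per array in genes with at least 3. The gene-level fit, the exon-level fit and the fit of a probeset against its gene were run on simulated data with independent noise. Changes as small as that of ITGA6, the alternative settings, diffSplice and the profile distances were not simulated. Figures were drawn with matplotlib 3.10.9.

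The genes, the adhesion groups, the tests and the rule for named features were chosen with earlier results of these data known. By that rule the text names all 5 integrin genes, their extreme, called, brightest and dimmest probesets, up to 3 genes with the smallest p per adhesion group, and the nearest profiles; genes named outside it are marked as such in the text. Where the rule gave more, some are summarised. No sequence is printed.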

Additional observations from a re-analysis of the deposited data

How the results depend on the processing

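The alternatives were offsets of 1 and 64, no filter or one at 60%, quantile normalization, centring, no intensity trend, robust variances, the replicate block and leaving out each array, plus the median of a gene's probesets and diffSplice where they apply. ITGA3 kept its call in all 14, with adjusted p between 4.24e-06 and 0.00215. The number of the integrin genes called at the gene level, 2 of 4 tested, was 1 to 2 with an array left out and 1 of 5 with the median of probesets, since ITGA6 lost its call there. The direction turned for ITGB1 with that median (0.0045) and for ITGB4 without control replicate 1 (from -0.024 there to 0.095 over the arrays left out), neither called. Probesets apart from their gene, 0 in the fit reported, numbered 1 with the filter at 60%, 2 with the replicate block (3726156 and 3726203, adjusted p = 0.00482 and 0.0414, limma), 4 with diffSplice and 0 to 1 with an array left out. Adhesion genes called, 14 in the fit reported, numbered 6 without the filter, 8 after centring, 9 without the trend and 3 to 8 with an array left out. A group left with 1 array borrows its spread from the other. The labels do not say that equal replicate numbers share a batch. Deviations of same-numbered arrays from their group means correlated at 0.29 (gene level) and 0.30 (exon level) over features, and with the replicate block ITGA6 had 16 called probesets, ITGB1 had 5 and ITGB4 had 1, while the genes called at the gene level stayed at 2. Signal near background limits ITGA7 and the dimmest probesets.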
